A study of Rattus norvegicus with 6 samples.

Results

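The cell cycle and DNA replication genes described here are a fixed list of 31 symbols, and they were followed through every probe set to which the platform annotation gives 1 of those symbols alone. Of the 31 genes, 29 had such a probe set, out of 14217 genes so named, and they held 39 of the 31099 probe sets on the array. Tpx2 had none, and Rrm2 shared its probe sets with Rrm2l1, so both are named only. The gene number of all 29 led to the same symbol in RefSeq. Where a gene had several probe sets, it is represented by the one that was brightest on average.

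The cells were rat primary cortical cells, transfected either with a Math2 expression vector (3 arrays) or with a control vector (3 arrays). Math2, now called Neurod6, is a transcription factor found in neurons. All dishes of both groups also received a vector for LNGFR, a nerve growth factor receptor cut short on its cytoplasmic side, and cells bearing this tag were collected with magnetic beads 24 h later. The sources used here do not give the promoters of the vectors, the strain and age of the rats, or whether a number in a title stands for a separate culture. The p-values therefore speak only to the spread among these 6 samples, and part of that spread may be technical.

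A dividing cell passes from G1, when D-type cyclins respond to growth signals, through S phase, when the MCM helicase and its partners copy the DNA, to mitosis, which is driven by Cdk1 with cyclin B and watched over by the spindle checkpoint. Messages of replication genes accumulate around the start of S phase through E2F factors. Messages of mitotic genes accumulate later, in G2, a timing under the control of the DREAM and MuvB complexes. Neurons leave this cycle for good, whereas the progenitors and glia of a cortical culture can go on dividing.

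Each RNA was read on 1 Affymetrix rat expression array, and a signal is the deposited MAS5 intensity of a probe set, on a linear scale. Signals of different probe sets are not read as levels of different genes, since probes differ in brightness. Sums and means over probe sets are compared only between arrays, and a sum is led by its brightest markers. Median signals ran from 106 to 120 on the Math2 arrays and from 102 to 120 on the control arrays. Control transcripts spiked into the hybridization had a geometric mean signal of 3875 to 6773 on the Math2 arrays and of 1893 to 2566 on the control arrays, without overlap. The ratio of Gapdh signal at the 3' end to that at the 5' end, which grows as labelled copies get shorter, was 8.48, 6.0 and 8.14 on Math2 arrays 1, 2 and 3 and 13.8, 3.74 and 5.04 on control arrays 1, 2 and 3. Of the pan-neuronal markers, 6 of 8 passed the filter on low signals described below, and the summed signal of all 8 was 8753, 7005 and 23831 on Math2 arrays 1, 2 and 3, against 11369, 6480 and 16820 on control arrays 1, 2 and 3. Neural progenitor markers had 6 of 7 measured genes past the filter, with sums of 25833 to 37798 on the Math2 arrays and of 24045 to 25582 on the control arrays, and astrocyte markers had 6 of 6, with 20573 to 35282 on the Math2 arrays and 21882 to 29614 on the control arrays. Fibroblast and meningeal markers had 5 of 7 past the filter and sums of 6236 to 9348 on the Math2 arrays and 6682 to 11260 on the control arrays. Oligodendrocyte precursor and endothelial markers each had 2 of 4 measured genes past the filter. Of 5 microglial markers, 0 passed the filter, with sums of 151 to 201 on the Math2 arrays and of 196 to 263 on the control arrays. No marker was listed at 0. In such bulk samples, fewer cells of a type and less RNA per cell cannot be told apart.

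Every measured cell cycle gene was brighter in both groups than the median of its array, a rough mark of brightness and not of transcript number. The representative probe sets of all 29 genes were above the array median on every one of the 6 arrays, and those of 25 genes were at least 5 times the median everywhere. The lowest such multiple was 2.04, for Birc5, the survivin gene. The same shares over all genes were not taken, and choosing the brightest probe set of a gene raises such counts. The table holds no detection calls, so no formal call of presence was made. A filter kept the 18625 of 31042 non-control probe sets whose mean log2 signal reached the 40th percentile of the array set, 6.07. Of the 39 member probe sets, 38 passed it. The exception was 1 of 5 Cdc20 probe sets, 1394113_at, with a mean signal of 49.8 ± 41.9 in the Math2 arrays and 59.2 ± 9.78 in the control arrays (SD, n = 3).

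**Figure D1:**
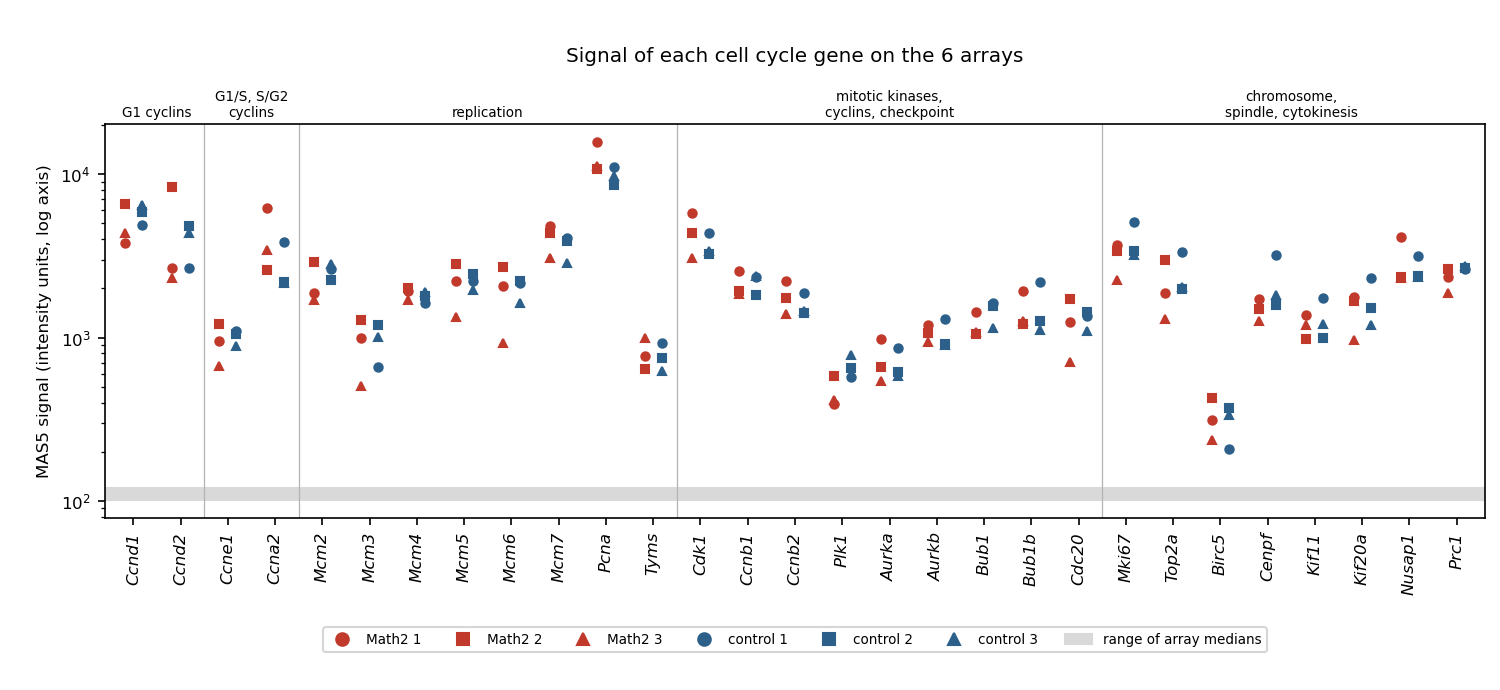
Signal of the 29 measured cell cycle genes (log axis, MAS5 intensity units), each by its brightest probe set, with Math2 arrays in red to the left of control arrays in blue, marker shape giving the number in the title, and the grey band the range of array medians. All points lie above the band, from 208 for Birc5 to 15707 for Pcna.

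No cell cycle gene passed the test between the groups. Signals were compared as log2(signal + 7.42) with limma across 18625 probe sets, with Benjamini-Hochberg adjustment over all of them and a threshold of 0.05. A log2 difference is on that scale throughout and runs as Math2 minus control. Of the 38 tested member probe sets, 0 were called higher and 0 lower, against 0.0% of all tested probe sets called. At an unadjusted p under 0.05 in limma there were 0 of the 38, against 326 higher and 268 lower of all 18625. With the title's number as a replicate block, 0 of the 38 were called, against 0.0161% of all tested probe sets. At an unadjusted p under 0.05 in that fit, 2 were higher (Ccna2 and Pcna) and 2 lower (Cenpf and Plk1). Over all 18625 tested probe sets, 704 were higher and 731 lower at that threshold. The smallest adjusted p of any member was 0.312 over the 17 settings run. The groups did not overlap for 2 of the 38 probe sets, both lower on the Math2 arrays, which is 5.26% against 4.3% of all tested probe sets, and for 0 of the 38 with higher values, against 3.7%.

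By gene, 11 of 29 had a log2 difference above 0 and 18 below 0, that is 62.1% below 0 against 54.3% of all tested probe sets. The median was -0.097, against -0.031 over all tested probe sets, and the 29 values ran from -0.54 to 0.53. Without Math2 array 3, and with control array 3 kept, the median of the 29 genes was 0.15, so its sign rested on that array. With arrays paired by number, 3 of the 29 genes were higher on the Math2 array in all 3 pairs. That is 10.3%, against 13.1% of all tested probe sets. Another 6 were lower in all 3 pairs, 20.7% against 15.2%. The SEs and intervals given for genes are from the fit without the block. There the 95% confidence interval of a gene reached 0.44 to 0.96 to each side on the log2 scale, 0.61 in the median gene. These intervals leave room for differences of up to 1.29 above and 1.15 below 0, so modest differences were not detectable in that fit with 3 arrays a group.

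**Figure D2:**
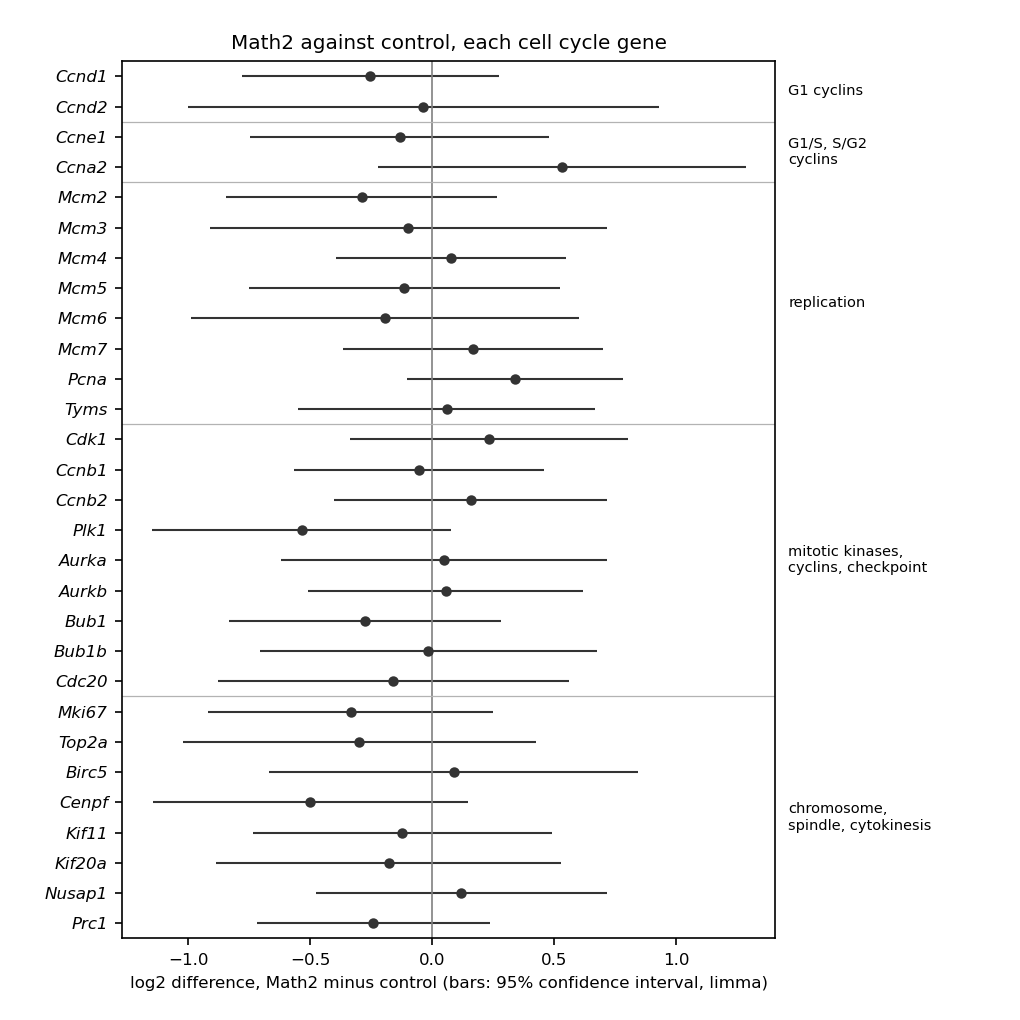
Log2 difference of each of the 29 genes, Math2 minus control (points), with the 95% confidence interval from limma (bars), ordered by role. In this fit, which is without the replicate block, every interval spans 0, and the points run from -0.54 for Plk1 to 0.53 for Ccna2. With the block, the intervals of Ccna2 (0.13 to 0.93) and Pcna (0.0052 to 0.67) lay above 0. Those of Plk1 (-1.06 to -0.014) and Cenpf (-0.96 to -0.041) lay below 0, and those of the other genes spanned 0. No interval is adjusted for the number of probe sets.

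Among the cyclins of G1, Ccnd1 (cyclin D1) and Ccnd2 (cyclin D2) carry growth signals to the kinases Cdk4 and Cdk6. Ccnd2 had signals of 2680, 8389 and 2326 on Math2 arrays 1, 2 and 3 and of 2672, 4808 and 4391 on control arrays 1, 2 and 3. The highest array was number 2 in both groups, 3.13 times array 1 among the Math2 arrays and 1.80 times among the control arrays, and the groups overlapped (log2 difference -0.036, SE 0.436; limma adjusted p = 1.00). Without that Math2 array alone the Ccnd2 difference was -0.62. Without array 2 of both groups, in the fit with the block, it was -0.46. Ccnd1 measured 3790, 6535 and 4360 on Math2 arrays 1, 2 and 3 and 4849, 5847 and 6463 on control arrays 1, 2 and 3, a log2 difference of -0.25 (SE 0.238). Its other probe sets, 1371150_at and 1383075_at, had differences of -0.23 and -0.32, and both were highest on array 2 of each group.

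Ccne1, cyclin E1, which starts S phase with Cdk2, averaged 949 ± 273 in the Math2 arrays and 1016 ± 110 in the control arrays (SD, n = 3), with a difference of -0.13 and an interval from -0.75 to 0.48. Ccna2, cyclin A2, which acts in S phase and G2, stood at the upper end of the list. Its signals were 6169, 2594 and 3409 on Math2 arrays 1, 2 and 3 and 3849, 2186 and 2143 on control arrays 1, 2 and 3. Each Math2 array was above the control array of the same number, yet the groups overlapped, since control array 1 exceeded Math2 arrays 2 and 3. The log2 difference was 0.53 (SE 0.341), or 1.45-fold with an interval from 0.857 to 2.44, and it did not pass in limma without the block (adjusted p = 1.00) or with it (adjusted p = 0.502).

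The replication genes gave a promoter pattern of their own. RefSeq promoter windows on GRCr8, from 250 bases before to 50 after a start site, were at hand for 24 of the 29 measured genes, 7 of them replication genes and 16 mitotic genes. They were searched on both strands for an E2F motif, spelled TTTCCCGC, TTTGGCGC, TTTCGCGC or TTTGCCGC, for the CHR (cell cycle genes homology region, TTTGAA), and for CCAAT. The E2F letters were in 6 of 7 replication windows and in 1 of 16 mitotic windows, that of Cdk1, against 2.14% of all 33469 windows and 4.12% of the 9758 windows of genes with a tested probe set. A match is only a run of letters, and the choice of start site moves the window: for 10 of the 24 genes the window's start was the outermost annotated one, and the stretches printed here come from these. Shown are the 150 bases up to the start site, 5′ to 3′ on the gene's strand, with E2F, CHR and CCAAT matches in capitals, for Mcm5 and Mcm6, which hold E2F letters, and for Pcna, the exception among the 7.
Mcm5, chr19:13488663-13488812, plus strand: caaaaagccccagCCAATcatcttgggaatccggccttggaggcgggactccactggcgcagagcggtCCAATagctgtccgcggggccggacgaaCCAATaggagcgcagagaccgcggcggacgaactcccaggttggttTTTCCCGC
Mcm6, chr13:42404353-42404502, minus strand: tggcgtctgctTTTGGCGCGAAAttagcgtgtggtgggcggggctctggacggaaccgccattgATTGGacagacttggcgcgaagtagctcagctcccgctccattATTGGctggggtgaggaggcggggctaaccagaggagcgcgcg
Pcna, chr3:139955821-139955970, minus strand: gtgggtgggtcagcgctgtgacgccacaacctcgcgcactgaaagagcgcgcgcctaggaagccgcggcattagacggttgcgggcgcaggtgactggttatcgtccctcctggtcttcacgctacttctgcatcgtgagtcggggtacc

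In Mcm5 one E2F match lies directly before the start site, and in Mcm6 a match on each strand overlaps in a single run. The same kind of overlap was found in Mcm2, with first bases 14 and 10 before the start, and in Mcm5 upstream of the printed stretch, with first bases 213 and 209 before it. Mcm3, Mcm7 and Tyms held E2F letters too, in Tyms 37 bases before the start. No match says only that these letters are not in the Pcna window.

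The MCM genes encode the 6 subunits of the ring-shaped helicase that unwinds DNA at the fork. Mcm6 measured 2052, 2701 and 931 on Math2 arrays 1, 2 and 3 and 2142, 2221 and 1627 on control arrays 1, 2 and 3. Its lowest array was number 3 in both groups and its highest number 2 in both, and the log2 difference was -0.19 (SE 0.359). Without Math2 array 3, and with control array 3 kept, that value was 0.25. Mcm5 had the same order of arrays, with 2219, 2834 and 1327 on Math2 arrays 1, 2 and 3 and 2225, 2447 and 1943 on control arrays 1, 2 and 3 (log2 difference -0.11, SE 0.288).

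Mcm2 measured 1878, 2890 and 1702 on Math2 arrays 1, 2 and 3 and 2643, 2262 and 2822 on control arrays 1, 2 and 3, a difference of -0.29 (SE 0.251). Mcm3 had 994, 1279 and 505 on Math2 arrays 1, 2 and 3 and 659, 1185 and 1009 on control arrays 1, 2 and 3, highest on array 2 of both groups (difference -0.097). Mcm4 averaged 1879 ± 159 in the Math2 arrays and 1783 ± 141 in the control arrays (SD, n = 3). Mcm7 averaged 4080 ± 917 in the Math2 arrays and 3609 ± 646 in the control arrays, and its difference of 0.17 (interval -0.37 to 0.70) was above 0 in 3 of 3 numbered pairs. Thus 2 MCM subunits had values above 0 and 4 below, none past the test.

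Pcna, the sliding clamp that holds DNA polymerase on its template, had 15707, 10677 and 11217 on Math2 arrays 1, 2 and 3 and 11113, 8540 and 9802 on control arrays 1, 2 and 3. Each Math2 array was above the control array of its number, while the groups overlapped at control array 1. The log2 difference was 0.34 (SE 0.200), or 1.26-fold, and did not pass in limma without the block (adjusted p = 1.00) or with it (adjusted p = 0.641; unadjusted p = 0.0470). With quantile normalization the Pcna difference was 0.043, and with single arrays left out it ran from 0.16 to 0.44. Vim (vimentin), a progenitor marker that makes up most of that list's sum, had 27462, 25389 and 16983 on Math2 arrays 1, 2 and 3 and 15680, 16546 and 15710 on control arrays 1, 2 and 3. The progenitor sum was higher on the Math2 array in 3 of 3 numbered pairs with Vim and in 2 of 3 without it, a choice made after seeing the data: 10336, 8301 and 8849 on Math2 arrays 1, 2 and 3 and 9786, 9036 and 8335 on control arrays 1, 2 and 3. Of the 6 tested progenitor markers, 4 had differences above 0 and 2, Sox2 and Nes, below 0. Their part in the Pcna and Ccna2 values was not tested. Tyms, which makes thymidylate for DNA synthesis, averaged 802 ± 174 in the Math2 arrays and 768 ± 151 in the control arrays (SD, n = 3), a difference of 0.059. Over the 8 measured replication genes, 4 had differences above 0 and 4 below, with a median of -0.019. This median turned positive when Math2 array 3 was left out (0.22) or control array 2 was (0.068).

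Of a wider list of other replication genes, all 19 measured genes were tested, and 0 passed in either direction, without or with the block. There were 5 with differences above 0 and 14 below, and the median was -0.090. Lig1, the ligase that joins Okazaki fragments, had 1688, 1824 and 1069 on Math2 arrays 1, 2 and 3 and 3243, 2041 and 1947 on control arrays 1, 2 and 3. Its groups did not overlap, and its difference of -0.65 (SE 0.290) did not pass in limma (adjusted p = 1.00, or 0.473 with the block). Rfc3, of the complex that loads the clamp, had a difference of -0.61 and Pola1, the catalytic subunit of the priming polymerase, of -0.48. On the other side Prim1, Cdt1 and Mcm10, which act in priming, licensing and the start of replication, had 0.15, 0.093 and 0.032.

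The mitotic windows differed from the replication windows in CHR letters as well as in E2F letters. The only CHR match of Plk1, Nusap1 and Cenpf began after the start site, within the window. CHR letters were in 11 of 16 mitotic windows, against 1 of 7 replication windows (Mcm2), 18.3% of all windows and 11.5% of those of genes with a tested probe set. CCAAT was in 13 of the 16 and in 5 of the 7, against 37.5% of all windows and 37.9% of those of genes with a tested probe set. Of the 16, Ccnb1, Kif11, Kif20a, Aurka and Bub1 had no CHR letters in the window. Shown in the same way are Top2a and Cdc20, which hold CHR and CCAAT letters, and Ccnb1, which holds CCAAT letters alone in this stretch.
Top2a, chr10:84473094-84473243, minus strand: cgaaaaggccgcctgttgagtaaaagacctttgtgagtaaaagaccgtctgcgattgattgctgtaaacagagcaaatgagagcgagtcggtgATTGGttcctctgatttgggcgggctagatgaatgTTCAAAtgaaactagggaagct
Cdc20, chr5:137255800-137255949, minus strand: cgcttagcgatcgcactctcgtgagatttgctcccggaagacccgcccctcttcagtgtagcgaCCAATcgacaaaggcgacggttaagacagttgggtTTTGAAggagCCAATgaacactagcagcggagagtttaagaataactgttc
Ccnb1, chr2:33655226-33655375, minus strand: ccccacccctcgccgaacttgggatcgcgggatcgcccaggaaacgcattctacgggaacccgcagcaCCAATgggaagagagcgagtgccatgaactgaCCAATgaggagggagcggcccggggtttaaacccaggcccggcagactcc

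In Top2a the CHR letters begin 22 bases before the start and in Cdc20 51 bases before it. In both, CCAAT letters lie within the same stretch. In Ccnb1 CCAAT stands at 82 and 50 bases before the start.

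**Figure D3:**
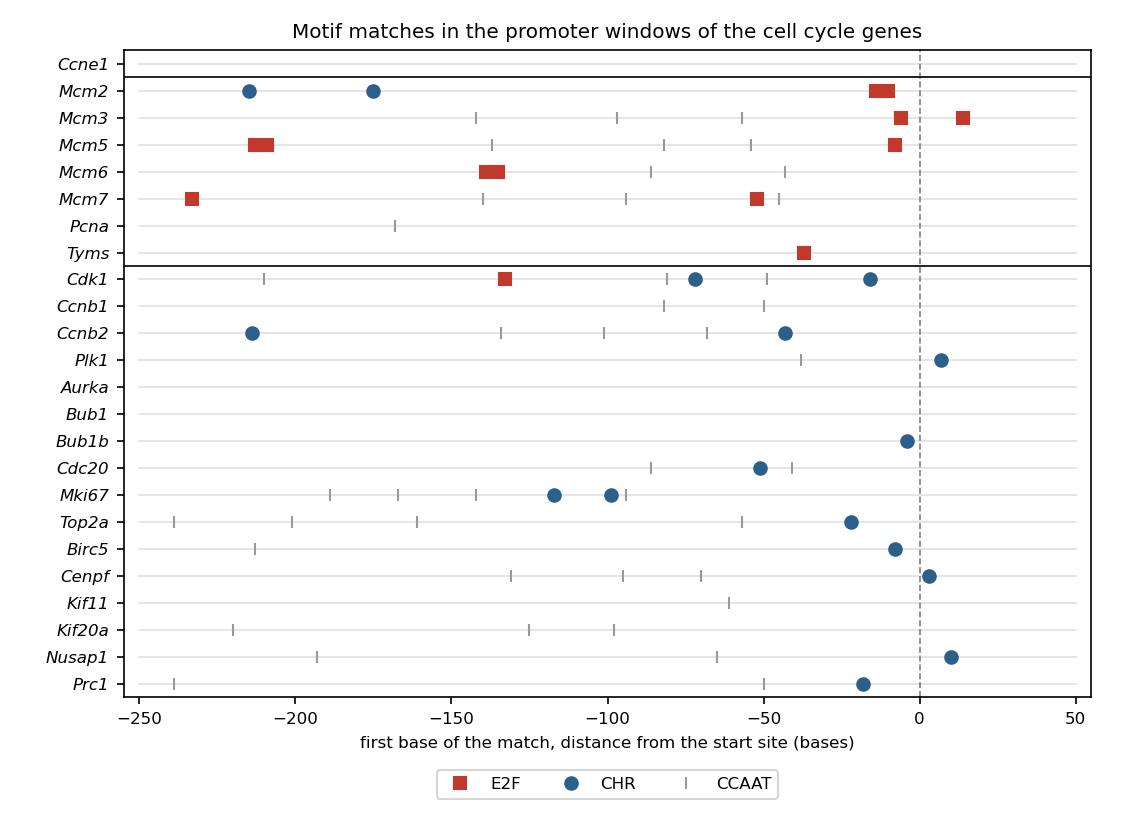
First base of each E2F (red squares), CHR (blue circles) and CCAAT (grey bars) match in the promoter windows of 24 cell cycle genes, as distance in bases from the start site, with replication genes between the black lines and mitotic genes under the lower one. Red squares fall in 6 of 7 replication windows and 1 of 16 mitotic ones, blue circles in 1 of 7 and 11 of 16.

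Among the mitotic kinases and cyclins, Cdk1, the kinase that starts mitosis, had 5776, 4340 and 3087 on Math2 arrays 1, 2 and 3 and 4378, 3231 and 3365 on control arrays 1, 2 and 3. Array 1 was the highest in both groups, and the difference was 0.23 (SE 0.257). Its partner cyclin B1, Ccnb1, averaged 2103 ± 382 in the Math2 arrays and 2175 ± 307 in the control arrays (SD, n = 3), and its other probe set averaged 845 ± 202 in the Math2 arrays and 980 ± 101 in the control arrays. Ccnb2, cyclin B2, had a difference of 0.16.

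Plk1, polo-like kinase 1, which matures centrosomes and helps to trigger mitosis, stood at the lower end of the list. It measured 393, 577 and 416 on Math2 arrays 1, 2 and 3 and 576, 651 and 779 on control arrays 1, 2 and 3. Each Math2 array lay below the control array of its number, and Math2 array 2 lay just above control array 1, so the groups overlapped. The difference was -0.54 (SE 0.277, interval -1.15 to 0.077), with an exact two-sided permutation p = 0.2 where 0.1 is the smallest possible. That test, also used for Top2a below, moved arrays freely between the groups and left out the pairing by number. In limma the adjusted p was 1.00 without the block and 0.634 with it.

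The Aurora kinases Aurka, of centrosomes and spindle poles, and Aurkb, of the chromosomal passenger complex, had differences of 0.050 and 0.056. Of the spindle checkpoint genes, Bub1b measured 1936, 1217 and 1253 on Math2 arrays 1, 2 and 3 and 2200, 1254 and 1105 on control arrays 1, 2 and 3. Array 1 stood apart from arrays 2 and 3 in both groups, and the group difference was -0.015, which turned to 0.021 with quantile normalization. Bub1 had 1425, 1053 and 1077 on Math2 arrays 1, 2 and 3 and 1618, 1553 and 1142 on control arrays 1, 2 and 3, below in 3 of 3 pairs, with a difference of -0.27 (SE 0.252). Cdc20, which activates the anaphase-promoting complex, had a difference of -0.16 in its brightest probe set and of -0.29, -0.50 and -0.54 in its other tested ones. The last pair, 1389506_x_at and 1374360_at, had signals below the array median on some arrays, so the sizes are uncertain, and the suffix _x_at marks probes that can match other transcripts.

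Of the genes for chromosomes, spindle and cytokinesis, Mki67, which encodes the Ki-67 protein that coats mitotic chromosomes and is a common marker of dividing cells, had 3666, 3367 and 2246 on Math2 arrays 1, 2 and 3 and 5109, 3397 and 3206 on control arrays 1, 2 and 3. Each Math2 array lay below its numbered control, array 1 was the highest in both groups, and the ranges overlapped. The difference was -0.33 (SE 0.263), or 0.793-fold with an interval from 0.529 to 1.19, and the limma adjusted p was 1.00, or 0.714 with the block.

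Cenpf, a kinetochore protein, had 1726, 1502 and 1257 on Math2 arrays 1, 2 and 3 and 3206, 1586 and 1817 on control arrays 1, 2 and 3. Control array 1 was 2.02 times control array 2 and drew the control mean up, and the difference was -0.50 (SE 0.292), with a limma adjusted p of 1.00 (0.606 with the block). Without control array 1 alone the Cenpf difference was -0.19. Without array 1 of both groups, in the fit with the block, it was -0.30.

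Top2a, topoisomerase II alpha, which untangles sister chromosomes, had 2 probe sets. The dimmer measured 742, 755 and 702 on Math2 arrays 1, 2 and 3 and 1110, 830 and 952 on control arrays 1, 2 and 3, without overlap (difference -0.38, SE 0.242; exact permutation p = 0.1, the smallest possible; limma adjusted p = 1.00, or 0.726 with the block). The brighter overlapped widely, at 1864, 2983 and 1304 on Math2 arrays 1, 2 and 3 and 3337, 1978 and 2048 on control arrays 1, 2 and 3. Prc1, which bundles the microtubules of the central spindle, was the other gene without overlap. It had 2356, 2637 and 1860 on Math2 arrays 1, 2 and 3 and 2644, 2648 and 2732 on control arrays 1, 2 and 3, a difference of -0.24 (SE 0.216) in which Math2 array 2 fell short of the lowest control by little.

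Kif11, the motor that pushes spindle poles apart, had a difference of -0.12, and its second probe set, near the array median, of 0.066. Kif20a, a motor of cytokinesis, had -0.18. Nusap1, a spindle-binding protein, had 0.12 and in its dimmer probe set -0.14. Birc5, which belongs to the passenger complex with Aurkb, averaged 323 ± 94.9 in the Math2 arrays and 304 ± 84.5 in the control arrays (SD, n = 3). Over the 17 measured mitotic genes, 6 had differences above 0 and 11 below, with a median of -0.12, and this median was 0.082 when Math2 array 3 was left out and 0.0047 when control array 1 was.

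A wider list of other mitotic genes had 24 measured genes, all tested, of which 0 passed in either direction without or with the block (0 at an unadjusted p under 0.05 without it). It had 11 above 0 and 13 below, with a median of -0.016. Those with the smallest p were Cks2, Racgap1 and Smc4 at 0.33, 0.38 and 0.57 and Spc25, Melk and Kif23 at -0.48, -0.33 and -0.26. Spc25, a kinetochore protein, measured 3320, 2494 and 2105 on Math2 arrays 1, 2 and 3 and 4258, 3209 and 3453 on control arrays 1, 2 and 3. Among other cell cycle regulators, 21 of 22 measured genes were tested, 0 passed without or with the block, and 8 were above 0 and 13 below. Cdc25a, the phosphatase that activates cyclin E and A kinases, had 305, 278 and 279 on Math2 arrays 1, 2 and 3 and 382, 476 and 505 on control arrays 1, 2 and 3, without overlap (difference -0.64, SE 0.272; limma adjusted p = 1.00, or 0.571 with the block). The transcription factor genes E2f2 and Foxm1 had differences of -0.71 and -0.54, while E2f1, Ccne2 and Tfdp1 had 0.39, 0.34 and 0.24.

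Single arrays spread widely, by up to 0.68 for the mean log2 level of the mitotic genes and 0.60 for that of the replication genes, and the number in the title recurred in that variation. This pattern was noticed in these data and is described without a test. In 11 of 17 mitotic genes, array 1 was the highest of its group both among the Math2 arrays and among the control arrays, 64.7% against 14.2% of all tested probe sets. They were Cdk1, Ccnb2, Aurka, Aurkb, Bub1, Bub1b, Mki67, Cenpf, Kif11, Kif20a and Nusap1. The same held for 2 of 8 replication genes, Pcna and Mcm7. In the wider lists it held for 15 of 24 mitotic genes, 6 of 19 replication genes and 6 of 21 regulators, and whether these shares differ was not tested. Array 2 was the highest of both groups for Mcm3, Mcm5, Mcm6, Ccnd2, Cdc20 and Birc5, 6 of 29 or 20.7%, close to the 20.2% of all tested probe sets. Array 3 was the highest of both groups for 0 of 29, against 14.8%, and the lowest of both for 10 of 29, or 34.5% against 14.0%.

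Math2 array 3 had the lowest value of all 6 arrays for 16 of 29 genes (55.2%, against 18.4% of all tested probe sets). The highest value of all 6 arrays lay on Math2 array 1 for 8 genes (27.6%, against 17.7% of all tested probe sets), 5 of them mitotic and 2 replication genes. It lay on Math2 array 2 for 10 genes (34.5%, against 21.6%), 2 of them mitotic and 5 replication genes, and on control array 1 for 8 genes (27.6%, against 14.9%), each of them mitotic. Members are not independent of each other, since they share the same 6 RNA samples.

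**Figure D4:**
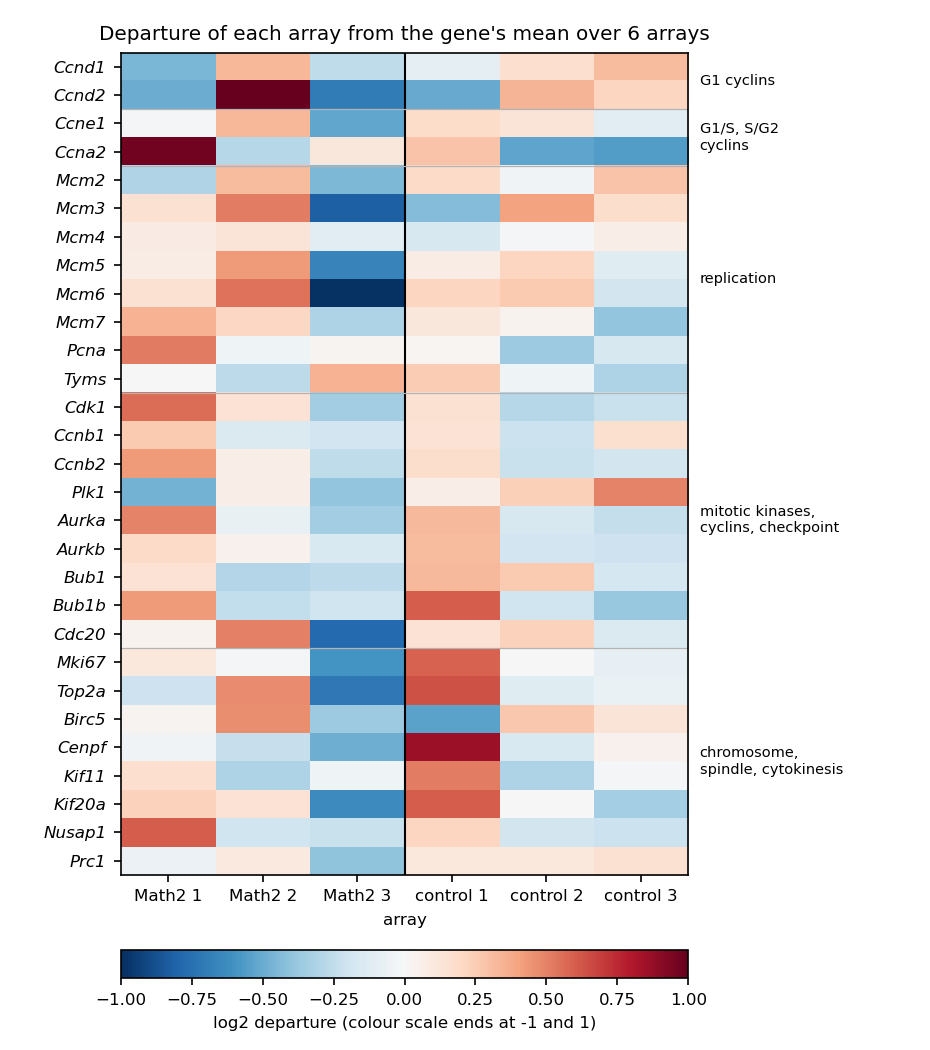
Departure of each array from a gene's mean over 6 arrays (log2, colour scale ending at -1 and 1), genes in rows by role, with the 3 Math2 arrays left of the 3 control arrays. Array 1 is mostly red for mitotic genes in both groups, array 2 of the Math2 group is red for Ccnd2 and most MCM genes, and Math2 array 3 is mostly blue.

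Averaged over genes on the log2 scale, the mitotic level was 10.69, 10.55 and 10.14 on Math2 arrays 1, 2 and 3 and 10.83, 10.46 and 10.44 on control arrays 1, 2 and 3. The replication level was 11.211, 11.312 and 10.716 on Math2 arrays 1, 2 and 3 and 11.116, 11.141 and 11.003 on control arrays 1, 2 and 3. Within an array, the replication level minus the mitotic level was 0.52, 0.77 and 0.57 on Math2 arrays 1, 2 and 3 and 0.29, 0.68 and 0.56 on control arrays 1, 2 and 3. The mean of this difference was 0.62 ± 0.13 in the Math2 arrays and 0.51 ± 0.20 in the control arrays (SD, n = 3), so the gap of 0.11 between the groups was smaller than the spread of the arrays in either, although each Math2 array exceeded its numbered control. Without control array 1 the gap was 0.0016. That step took the smallest value from the control group alone and kept Math2 array 1, so it did not keep the pairing by number. In both groups the replication minus mitotic value was smallest on array 1 and largest on array 2.

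**Figure D5:**
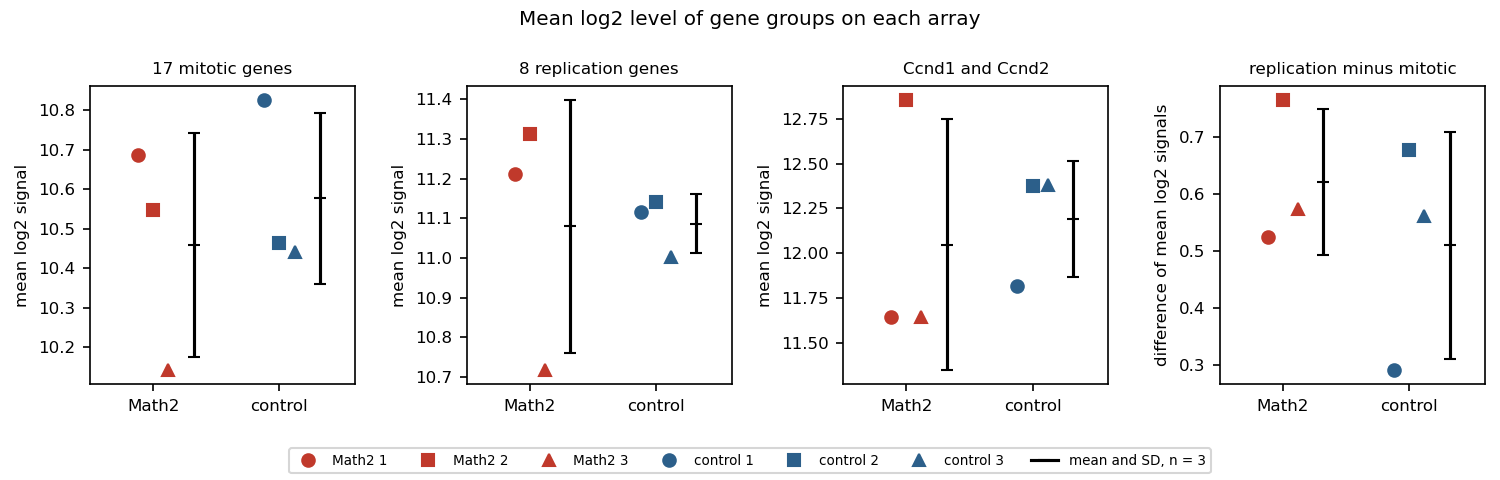
Mean log2 signal of the 17 mitotic genes, the 8 replication genes and the D cyclins on each array, and replication minus mitotic, with Math2 left of control, marker shapes for the number and black bars for the mean and SD (n = 3). The vertical axes do not start at 0 and differ between panels; the replication minus mitotic value runs from 0.29 to 0.77 and the groups overlap in all 4 panels.

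Other measures moved with the same numbers. The pan-neuronal sum given above was highest on array 3 of both groups, where 10 of 29 cell cycle genes were lowest, and 5 of the 6 tested pan-neuronal genes had their highest value on array 3 of both groups. Of the 5 tested fibroblast and meningeal genes, 3 did so as well. Dcx, doublecortin of young neurons, had 2987, 1638 and 8194 on Math2 arrays 1, 2 and 3 and 4048, 1447 and 4984 on control arrays 1, 2 and 3. Array 2 was highest in both groups, as for Ccnd2, for 1 of 6 tested astrocyte markers, Gfap, and for 1 of 6 progenitor markers, Nes. Array 1 was so for 3 of the 6 progenitor markers and for 1 of the 6 astrocyte markers, Aqp4. Gfap measured 2898, 5802 and 1971 on Math2 arrays 1, 2 and 3 and 2063, 4344 and 3202 on control arrays 1, 2 and 3. The Gapdh 3' to 5' ratio was highest on array 1 of both groups, in the Math2 group by little (8.48 against 8.14 on array 3). The same ratio for actin did not follow it in the Math2 group, with 14.343, 17.147 and 18.434 on Math2 arrays 1, 2 and 3 and 22.698, 10.996 and 13.469 on control arrays 1, 2 and 3, so array 1 was lowest in the Math2 group and highest in the control group. The part of cell mix and of RNA quality in these differences between arrays was not tested.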

How the data were processed

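Per the labels' protocols, biotin-labelled targets were made from total RNA of the bead-selected cells with a kit that amplifies in a pair of cycles. The authors deposited 1 linear intensity per probe set and array, made with MAS5 per the submitters' processing notes. The sources used here give no version or settings. After trimming 2% of values at each end, all 6 arrays averaged 500.2, and no further scaling was applied. The number of arrays limits the precision. Symbols came from an older platform annotation, in which 20826 probe sets had 1 symbol, 436 had several and 9780 had none. The 57 control probe sets were left out of tests.

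Here log2(signal + 7.42), whose pseudocount is the 10th percentile, was fitted with limma 3.58.1 in R 4.3.3 (lmFit, eBayes with trend, two-sided), on all 18625 probe sets past the filter. The fit was also run on simulated data. These had independent noise on each array and no effect shared by arrays of like number, so they do not test the fit under such an effect. Alternatives were the replicate block, quantile normalization, median centring, pseudocounts of 1 and 32, no filter and one at the 60th percentile, the mean over probe sets of a gene, and each array left out. Deviations from group means correlated at 0.326, 0.476 and 0.372 for arrays of like number, above the limit of 0.1, so the numbers were treated as pairing the samples. Arrays of unlike number correlated at -0.460 to 0.104. The highest of these, Math2 array 3 with control array 1, was just above the limit too. Named were every member, and of each wider list the 3 genes with the smallest p in each direction. Lig1 and Cdc25a fall under that rule. Dcx, Gfap, Nes, Vim, Sox2 and Aqp4 were singled out after their values were seen. The members and lists were chosen with earlier results of these data known. Promoter windows came from RefSeq on GRCr8.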

Additional observations from a re-analysis of the deposited data

How the results depend on the processing

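No member was called in any of the 17 settings, so with the replicate block, too, the count was 0; the members' smallest adjusted p was 0.502 there and ran from 0.312 to 1.00 over all settings. Over all probe sets the count of calls was 0 without the block, 3 with it, and 4, 114 and 15 with the block and without numbered pair 1, 2 and 3, fits on 4 arrays each; for single members the last 3 settings were chosen after seeing the data. With single arrays left out, the median log2 difference of the 29 genes ran from -0.20 (without Math2 array 2) to 0.15 (without Math2 array 3). That of the replication genes ran from -0.16 to 0.22, at the same arrays. Each of these steps kept the array of the same number in the other group, so variation tied to the number enters the values. The cause was not tested. The mitotic median and the replication minus mitotic difference moved by less than 1 SD of the arrays in each alternative. That SD describes the spread of arrays and not that of a median over genes. The mitotic median still turned positive without Math2 array 3 and without control array 1, as given above. Of 29 genes, 12 kept the sign of their difference in all settings, and 16 changed it when some array was left out. The counts of genes highest on array 1 of both groups were also taken with other scalings, chosen after seeing the data: 11 and 13 mitotic and 2 and 2 replication genes with quantile normalization and median centring.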
